A study of Homo sapiens with 9 samples.

Results

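The levels of 10 telomere genes were described in U2-OS, an established human osteosarcoma cell line that keeps its telomeres without telomerase. The genes were named for their role at telomeres, by a rule that uses no measured value but was set with earlier results of these data known, out of the 60609 gene identifiers listed in the count tables. They are the telomerase genes TERT and TERC, the chromatin genes ATRX and DAXX, and the 6 shelterin genes TERF1, TERF2, TERF2IP, TINF2, ACD and POT1. Of the 10, 8 had enough reads to be tested, and TERT and TERC had a count of 0 in every library.

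Telomeres are repeats of TTAGGG at chromosome ends, and most dividing tumours lengthen them with telomerase, a reverse transcriptase (TERT) that copies a template carried by its RNA (TERC). U2-OS is a widely used model of the alternative lengthening of telomeres (ALT), in which telomeres are copied from other telomeric DNA by recombination. ATRX and DAXX together deposit the histone H3.3 at telomeres, and loss of either is common in ALT tumours; U2-OS is known to carry a deletion within ATRX and to lack its full-length protein. Shelterin coats the repeats: TERF1 and TERF2 bind the double strand, POT1 binds the single-stranded overhang, ACD (TPP1) holds POT1, TINF2 (TIN2) bridges them, and TERF2IP (RAP1) rides on TERF2.

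The study compared U2-OS clones that overexpress NCBP2, the subunit of the nuclear cap-binding complex that holds the RNA cap, against clones carrying an empty vector. Each group is U2-OS by cell line: 3 libraries came from NCBP2 clone A1, 3 from NCBP2 clone A4, and the 3 vector libraries from 3 separate clones, 1 library each. The NCBP2 arm of 6 libraries therefore holds 2 clones, and nothing in the labels says whether the 3 libraries of a clone came from separate cultures, so p-values measure the spread between these libraries, part of which may be technical. Neither the promoter that drives the transgene nor the vector is given in the labels.

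Total RNA was sequenced after removal of ribosomal RNA, and total reads ranged from 80341579 to 111784333, of which 29234022 (clone A1 replicate A, the fewest) to 50554080 fell in genes. Levels are given as CPM, gene counts divided by the library's scaled gene total and scaled to a common size. NCBP2 was at 299 to 348 CPM in clone A1, 456 to 1035 CPM in clone A4 and 90.6 to 98.4 CPM in the vector libraries. By edgeR its log2 fold change of 2.50 (SE 0.407) in the NCBP2 arm did not pass the threshold of 0.05 (adjusted p 0.123; past it in 2 of 17 alternatives, DESeq2 and voom). It passed in clone A1 (1.73, SE 0.242, adjusted p 0.0327; past in 9 of 16 alternatives, and lost without any 1 of the vector libraries) and in clone A4 (2.99, SE 0.254, adjusted p 0.000417; past in 16 of 16). Of the 10 osteosarcoma and mesenchymal markers, RUNX2 (182 to 294 CPM), SPARC (1398 to 2250 CPM) and VIM (1302 to 2082 CPM) were high in every library, whereas the osteoblast genes SP7, BGLAP and IBSP stayed at or under 0.0269 CPM. Among markers of other cells, KRT8 and KRT18 were counted in every library, with the summed level of 5 epithelial markers at 76.3 to 150 CPM in the NCBP2 arm and 122 to 217 CPM in vector; EPCAM stayed between 2.42 and 5.58 CPM, and the part of these markers in the results was not tested. The 5 blood markers summed to 2.01 CPM at most, with CD3E and HBB at 0. Clone A1 replicate A stood apart, with 21823 genes detected against 25390 to 29787 in the other 8. Without it, 5 of the 32 member differences described below changed sign and none passed the test.

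TERT, the catalytic subunit, was not detected. Its count was 0 in all 9 libraries, on its own strand, on the opposite strand and without regard to strand. None of the 5920 bases of its merged exons (ENSG00000164362.20, chr5:1253147-1295068, minus strand, GRCh38) is shared with another gene on that strand, so the 0 is not set by reads that fit more than 1 gene. A count of 0 allows up to 3 counts, which is 0.106 CPM in the shallowest library (clone A1 replicate A), 0.0585 CPM in the deepest (vector replicate B) and 0.00784 CPM over all 9 together; these limits cover counting error only. The next gene on the chromosome, CLPTM1L, was counted 144281 times, at 251 to 478 CPM, while the kidney and gut transporter genes SLC6A18 and SLC6A19 on the other side had 0 and 1 counts. TERT was 1 of 2844 protein-coding genes (14.3% of 19886) with a count of 0 in every library.

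TERC, the template RNA, was also listed at 0 in every library, but for TERC the count does not measure the RNA. The annotation holds a second entry on the same strand, named Telomerase-vert (chr3:169764610-169765047), inside TERC (ENSG00000270141.3, chr3:169764520-169765060, minus strand, GRCh38). Both identifiers are listed in the count tables, and both are at 0. As GENCODE release 44 places them, they share 438 of the 541 bases of TERC (81.0%); the release used for counting is not given in the sources used here. The tables put reads that fit more than 1 gene on a line of their own, so a read in the shared bases is counted for neither. With these positions, that leaves 13 bases at the 5′ end and 90 bases at the 3′ end outside the shared stretch. A read that starts in these bases and reaches into the shared stretch is also counted for neither, if any overlap counts as a fit. The sources used here do not give the counting options. The 103 unshared bases gave no count. The sequences below show the first 100 bases, with the 11 bases complementary to the TTAGGG repeat, the template, in capitals (bases 46 to 56 from the 5′ end), which lie in the shared stretch, and the 90 unshared bases at the 3′ end (bases 452 to 541). Both are from the GENCODE release 44 transcript on GRCh38, minus strand, with T for U.
TERC bases 1 to 100, chr3:169764961-169765060: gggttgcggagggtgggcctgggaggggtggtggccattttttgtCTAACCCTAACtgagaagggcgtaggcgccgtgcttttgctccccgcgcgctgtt
TERC bases 452 to 541, chr3:169764520-169764609: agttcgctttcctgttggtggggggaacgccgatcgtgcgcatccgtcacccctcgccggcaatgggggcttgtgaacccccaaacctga

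Other RNAs with such double entries read the same way. RN7SK, the abundant 7SK RNA of transcription control, has 0 unshared bases of 328 and a count of 0 in all 9 libraries, as has the Cajal body RNA SCARNA2 with 0 of 420. Of the 1288 genes with no unshared exon base, 1200 (93.2%) had a count of 0 in every library. The counting rule itself sets such genes to 0 where the annotation used matches. Of all 60609 identifiers, 37715 had any count. By contrast, the small nucleolar RNA SNORA73B was counted 58189 times, at 74.5 to 227 CPM. The noncoding RNAs RMRP and RPPH1, looked up beside it, had 0 counts over the 9 libraries. Whether SNORA73B, RMRP and RPPH1 share bases with another entry is not given here. What set the counts of RMRP and RPPH1 to 0 was not tested. Beside TERC on chromosome 3, MYNN was counted 9489 times, ACTRT3 4 times and LRRC34 29 times. Whether TERC RNA is present in these cells, and whether its level differs between the groups, was not measurable from the gene counts.

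The other 8 members were counted in all 9 libraries. Per kilobase of merged exons, the mean level over 9 libraries was 20.4 CPM per kb for ATRX, 10.8 for TERF2, 7.26 for TERF2IP, 6.64 for DAXX, 5.50 for TINF2, 3.88 for POT1, 3.79 for TERF1 and 1.74 for ACD. Among tested protein-coding genes these levels ran from percentile 86.9 (ATRX) to percentile 35.0 (ACD). The ranges of neighbours in that order overlapped over the 9 libraries for every pair: ATRX lay above TERF2 in 8 of 9 libraries, TERF2 above TERF2IP in 9 of 9, TERF2IP above DAXX in 6, DAXX above TINF2 in 8, TINF2 above POT1 in 6, POT1 above TERF1 in 4, and TERF1 above ACD in 8. The order of the middle genes depends on the length used, because TERF1 has 15706 bases of merged exons but a longest transcript of 4242 bases: per kb of the longest transcript, TERF1 stood at 14.0 CPM per kb and ranked 4 of 8 in place of 7, and DAXX (7.86 CPM per kb) ranked 6 in place of 4. ATRX, TERF2 and ACD kept ranks 1, 2 and 8 under each of the 3 lengths tried.

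**Figure D1:**
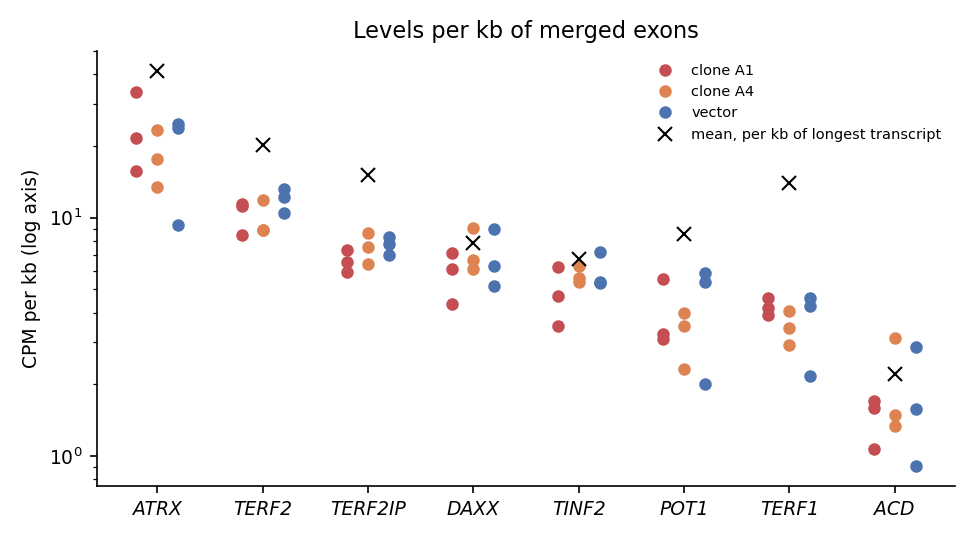
Level of each of the 8 counted telomere genes in each library, in CPM per kb of merged exons on a log axis, coloured by group, with a cross for the mean over 9 libraries per kb of the longest transcript. ATRX stands highest and ACD lowest on both lengths, and the cross of TERF1 (14.0) lies far above its points.

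No member differed between groups by the test. In edgeR's quasi-likelihood test with Benjamini-Hochberg adjustment over 21682 genes, 0 of the 8 tested members passed an adjusted p of 0.05 in the NCBP2 arm against vector, where 0.0184% of all genes passed. The count was also 0 of 8 in clone A1 against vector (0.0646% of all genes), in clone A4 against vector (0.115%) and in clone A4 against clone A1 (0.161%). DESeq2 and limma's voom, run as alternatives, also gave 0 of 8 in each, where DESeq2 called 0.471%, 1.26%, 0.821% and 1.14% of all genes and voom 0.996%, 1.37%, 1.07% and 0.687%. At an unadjusted p under 0.05 the count by edgeR was 0 of 8 in each comparison, where 5.71%, 7.51%, 5.25% and 6.63% of all genes passed in the same order. The levels of the groups overlapped for every member in each comparison, where 3.74%, 14.2%, 12.1% and 13.6% of all genes had groups that did not overlap. Comparisons with vector share the 3 vector libraries and are not independent of each other.

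Over the 32 tests of 8 members in 4 comparisons, log2 differences were 0.03 to 0.44 in size, the smallest adjusted p by edgeR was 0.808 and the smallest unadjusted p was 0.163 (TERF2, NCBP2 arm against vector). Two-sided exact permutation tests of the mean log2 CPM gave a smallest p of 0.167 and adjusted p of 1.0 for all 32; 3 libraries against 3 cannot give a p under 0.1. The 95% intervals of the log2 differences lay between -1.27 and 1.42, so differences of this size are not shown to be absent. The median difference of the 8 members was -0.09 in the NCBP2 arm against 0.02 for all genes, -0.21 against -0.02 in clone A1, -0.07 against 0.03 in clone A4, and 0.06 against 0.04 between the clones. Over the alternatives the members' median ran from -0.19 to -0.06 in the NCBP2 arm, from -0.30 (without vector replicate C) to -0.09 in clone A1, from -0.13 to -0.02 in clone A4 and from -0.12 to 0.12 between the clones. In bulk RNA, fewer cells that express a gene and less RNA per cell cannot be told apart.

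**Figure D2:**
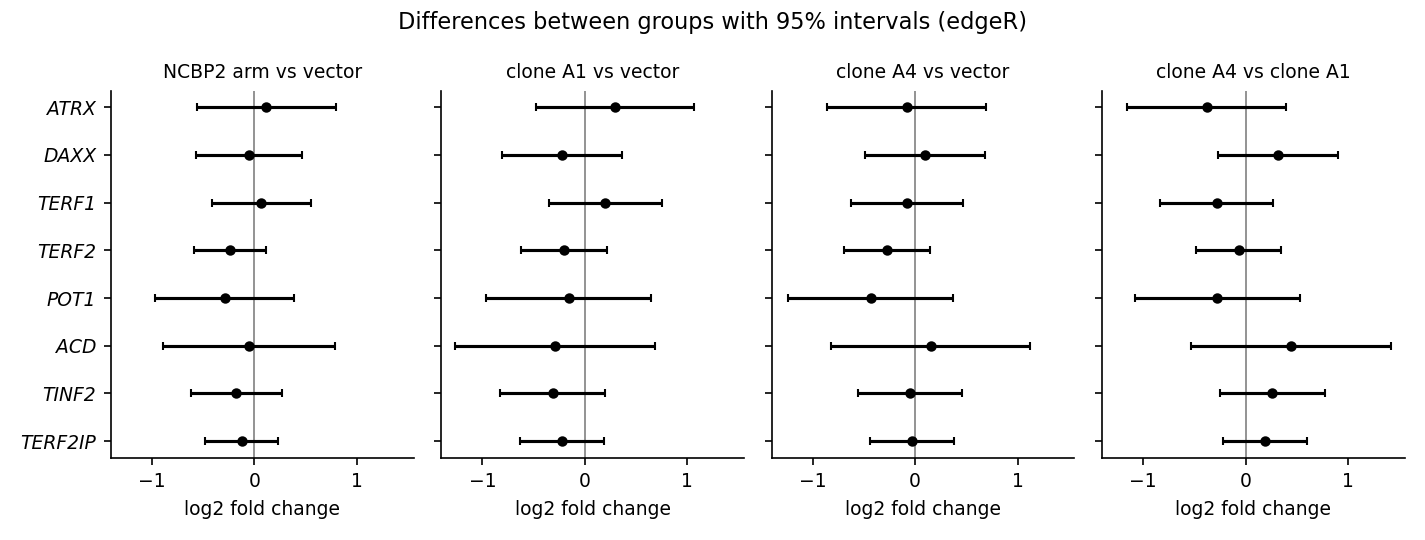
Log2 fold change of each member by edgeR (points) with a 95% interval derived from its test (bars) in the 4 comparisons. Values are positive where the first group named is higher. Every interval spans 0, and those of ACD, POT1 and ATRX are the widest.

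ATRX, the chromatin remodeller, had the highest level per kb of the members. With replicates in the order A, B, C here and below, it measured 764, 492 and 357 CPM for clone A1, 532, 307 and 402 for clone A4 and 564, 212 and 539 for vector. The highest library was thus in clone A1 and the lowest in vector, a span of 3.61-fold, and the 3 groups overlapped. Means were 476 CPM ± 164 (SD, n = 6) with NCBP2 against 438 CPM ± 197 (SD, n = 3) with vector, with a log2 fold change of 0.12 (SE 0.313, 95% interval -0.56 to 0.79). ATRX RNA was thus counted in a line known to lack the full-length protein; gene counts do not show which of its exons (ENSG00000085224.22, chrX:77504880-77786233, minus strand) were read.

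DAXX, the H3.3 chaperone that partners ATRX, ranked in the middle per kb. Its level was 13.4, 18.7 and 21.8 CPM for clone A1, 20.5, 18.9 and 28.0 for clone A4 and 19.4, 27.6 and 15.96 for vector. The lowest value came from clone A1 replicate A, in which ATRX was highest, and the 2 highest from clone A4 replicate C and vector replicate B. The arms had means of 20.2 CPM ± 4.77 (SD, n = 6) and 21.0 CPM ± 5.98 (SD, n = 3), and the log2 fold change was -0.05 (SE 0.239, 95% interval -0.57 to 0.46). Of its 3084 exon bases (ENSG00000204209.13, chr6:33318558-33323016, minus strand), 441 are shared with another gene and give it no counts.

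TERF1 (TRF1), which binds the double-stranded repeat, measured 72.2, 65.6 and 61.3 CPM for clone A1, 63.7, 46.0 and 54.1 for clone A4 and 72.2, 34.1 and 66.8 for vector. Vector replicate A and clone A1 replicate A were the highest, and vector replicate B was the lowest of the 9. The NCBP2 arm averaged 60.5 CPM ± 9.22 (SD, n = 6) and vector 57.7 CPM ± 20.6 (SD, n = 3), and the log2 difference was 0.07 (SE 0.223, 95% interval -0.41 to 0.55). TERF1 (ENSG00000147601.14) has 7 pseudogenes in the annotation, TERF1P1 to TERF1P7, which could draw reads from it. Together they held 15 counts over 9 libraries, against 22394 for TERF1. Reads that fit TERF1 and a pseudogene equally may be counted for neither, and their number was not measured.

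TERF2 (TRF2), the other double-strand binder, which protects the end from being joined as a break, was among the steadiest members. Its level (ENSG00000132604.11, chr16:69355567-69408571, minus strand) was 47.9, 64.4 and 63.2 CPM for clone A1, 50.2, 67.2 and 50.1 for clone A4 and 68.5, 74.6 and 59.2 for vector. The vector libraries took the 2 highest places and the sixth, and the lowest value was clone A1 replicate A. The mean was 57.2 CPM ± 8.64 (SD, n = 6) with NCBP2 against 67.5 CPM ± 7.78 (SD, n = 3) with vector. With a log2 fold change of -0.24 (SE 0.161, 95% interval -0.59 to 0.11), TERF2 had the lowest unadjusted p of the 32 tests and an adjusted p of 0.999 by edgeR.

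TERF2IP (RAP1), which binds telomeres through TERF2, varied least. It (ENSG00000166848.7, chr16:75647773-75761872, plus strand) measured 28.8, 32.5 and 26.1 CPM for clone A1, 33.4, 38.1 and 28.3 for clone A4 and 36.8, 34.2 and 30.9 for vector, a span of 1.46-fold. Its SD of log2 CPM over 9 libraries, 0.18, lay at percentile 7.13 of tested genes, whereas those of POT1 (0.55), ATRX (0.55) and ACD (0.58) lay at percentiles 54.2, 54.4 and 56.7. The difference between the arms was -0.12 (SE 0.165, 95% interval -0.48 to 0.23).

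TINF2 (TIN2; ENSG00000092330.18, chr14:24238286-24242663, minus strand) bridges the double-strand binders and the overhang complex. Its level was 15.3, 20.6 and 27.1 CPM for clone A1, 23.5, 24.4 and 27.6 for clone A4 and 23.5, 31.5 and 23.2 for vector. The lowest value was again clone A1 replicate A and the highest vector replicate B. The arms averaged 23.1 CPM ± 4.57 (SD, n = 6) against 26.1 CPM ± 4.73 (SD, n = 3), and the log2 fold change was -0.18 (SE 0.207, 95% interval -0.62 to 0.27).

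ACD (TPP1), which also recruits telomerase where a cell has it, had the lowest level per kb. It (ENSG00000102977.16, chr16:67657512-67660810, minus strand) measured 3.45, 5.14 and 5.48 CPM for clone A1, 4.28, 4.78 and 10.1 for clone A4 and 2.92, 9.25 and 5.05 for vector, from 98 to 474 counts. Clone A4 replicate C and vector replicate B stood well above the other 7. Its means were 5.54 CPM ± 2.34 (SD, n = 6) and 5.74 CPM ± 3.22 (SD, n = 3), and its log2 fold change of -0.05 had the widest 95% interval in that comparison (SE 0.391, -0.90 to 0.79).

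POT1, the single-strand binder (ENSG00000128513.16, chr7:124822386-124929983, minus strand), measured 48.2, 26.9 and 28.5 CPM for clone A1, 34.6, 20.1 and 30.7 for clone A4 and 51.2, 17.5 and 46.7 for vector. Vector replicates A and C were high and vector replicate B was the lowest of the 9, so the vector group covered the range of both clones. Means were 31.5 CPM ± 9.48 (SD, n = 6) against 38.5 CPM ± 18.3 (SD, n = 3), and the log2 fold change was -0.29 (SE 0.314, 95% interval -0.97 to 0.39). It was -0.035 without vector replicate A and -0.64 without vector replicate B. By clone it was -0.16 (SE 0.370) in clone A1 and -0.43 (SE 0.371) in clone A4.

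**Figure D3:**
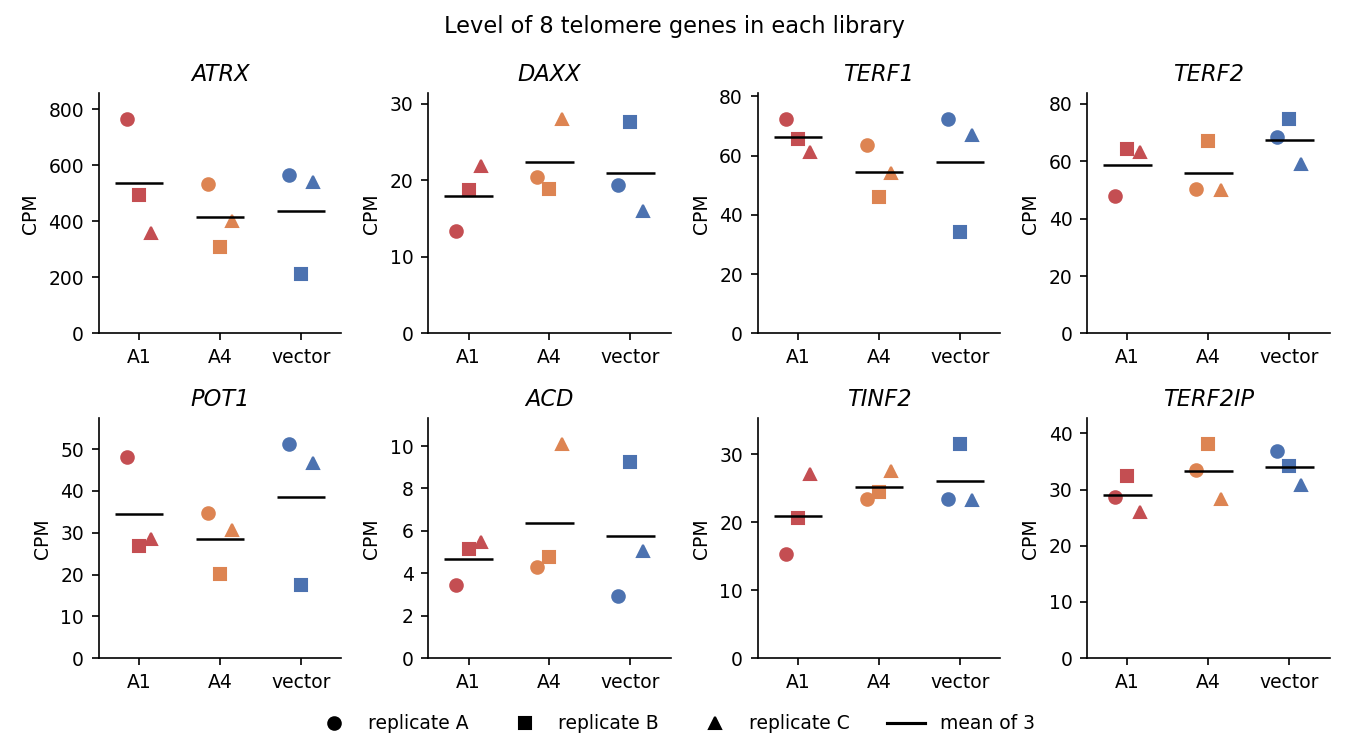
CPM of the 8 counted members in each of the 9 libraries, by group, with the replicate letter as the symbol and the group mean as a line; each axis starts at 0. The groups overlap in every panel, and vector replicate B (square) is the lowest of the 9 libraries for ATRX, TERF1 and POT1 (212, 34.1 and 17.5 CPM) and the highest for TERF2 and TINF2 (74.6 and 31.5 CPM).

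Members of low GC content were high and low in the same libraries. GC content of the longest transcript was 36.9% for ATRX, 37.4% for TERF1 and 37.7% for POT1, against 50.2% for TERF2IP, 51.1% for TERF2, 51.3% for TINF2, 54.8% for DAXX and 61.7% for ACD. The correlation of log2 CPM over the 9 libraries was 0.88 to 0.93 in the 3 pairs among ATRX, TERF1 and POT1. In the 15 pairs of 1 of these with 1 of the other 5 members it was -0.84 to -0.21, and in the 10 pairs among the other 5 it was -0.27 to 0.89. These correlations are descriptions over libraries that fall into 3 groups and differ in depth.

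Tested genes were split into 10 groups of equal size by GC content, numbered from the lowest. In group 1 (22.8% to 37.7%, 2159 genes), which holds ATRX, TERF1 and POT1, the median deviation of log2 CPM from the mean of 9 libraries was 0.52 in clone A1 replicate A and -0.65 in vector replicate B. In group 10, with the highest GC content, which holds ACD, it was -0.96 in clone A1 replicate A, 0.85 in clone A4 replicate C and 0.52 in vector replicate B. After centring each library on the median of a gene's GC group, a step chosen after seeing the data, the range of ATRX over 9 libraries went from 1.85 to 0.67 on the log2 scale and that of TERF1 from 1.08 to 0.37. DAXX went from 1.06 to 0.47, TINF2 from 1.04 to 0.57, POT1 from 1.55 to 1.02 and ACD from 1.77 to 1.15. TERF2 went from 0.64 to 0.54, and TERF2IP from 0.55 to 0.56. The part of GC content in the spread of the members was not tested beyond this centring.

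**Figure D4:**
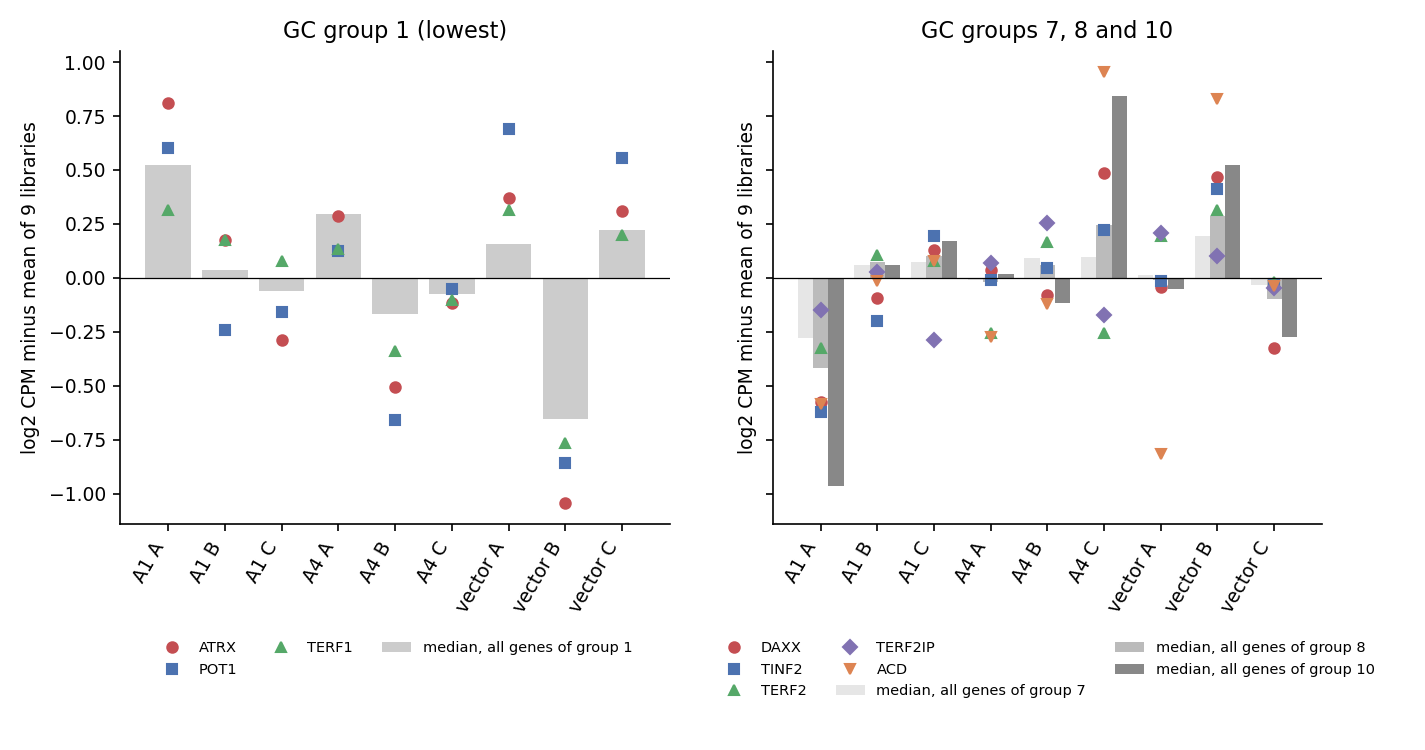
Log2 CPM of each member minus its mean over 9 libraries (symbols), by library, with the median deviation of all tested genes in the same GC groups (bars); TERF2, TERF2IP and TINF2 belong to group 7, DAXX to group 8 and ACD to group 10. Left, the 3 members of group 1 are all low in vector replicate B, where the bar stands at -0.65; right, ACD is high in clone A4 replicate C, where the bar of group 10 stands at 0.85.

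For ATRX, DAXX and TERF2, the 3 genes with the most similar pattern over the libraries were listed. Out of 11414 protein-coding candidates, ATRX was followed most closely over the 9 libraries by FAM169A (Pearson's r of log2 CPM 0.996), PANK3 (0.995) and ACAP2 (0.991), with a GC content of 36.8%, 36.8% and 37.2%. DAXX was followed by PLOD1 (0.991), CAVIN1 (0.985) and PUF60 (0.984), with 58.8%, 59.2% and 63.2%. For TERF2 the genes were EIF2AK1 (0.971), KHSRP (0.953) and CTNND1 (0.949), with 46.6%, 58.9% and 41.0%. TERC has no varying count to compare.

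POT1 was also set beside its chromosome region. Centred on GC content, its log2 fold change was -0.40 (SE 0.167) in the NCBP2 arm, with an adjusted p of 0.477 by edgeR, against -0.29 without centring. Without centring, the 20 nearest tested genes (10 on each side, chr7:121873089-127997597) had a median of -0.37 in the NCBP2 arm, -0.30 for clone A1 and -0.36 for clone A4. The median of all genes, also without centring, was 0.02, -0.02 and 0.03. The neighbours were not examined with centring. None of the 20 passed the threshold in any comparison. For the other 7 tested members the median of the 20 neighbours in the NCBP2 arm lay between -0.13 (ACD) and 0.15 (ATRX).

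Reads on the opposite strand were few for most members. Pooled over libraries, they made up 0.103% of the stranded reads at POT1, 0.175% at ATRX, 0.232% at TERF1, 0.522% at TERF2, 0.721% at TERF2IP, 1.36% at DAXX, 2.95% at ACD and 3.61% at TINF2. TINF2 overlaps GMPR2, and ACD overlaps CARMIL2, each on the other strand. The antisense RNA POT1-AS1 was at 0.591 to 3.52 CPM, against 17.5 to 51.2 CPM for POT1.

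Around these members, 67 further genes of telomere biology in 4 lists were examined, and 66 had enough reads to be tested. By edgeR with Benjamini-Hochberg adjustment over all genes, 0 of the 66 passed in any of the 4 comparisons; at an unadjusted p under 0.05 there were 3 in the NCBP2 arm, 3 in clone A1, 6 in clone A4 and 4 between the clones, beside 5.71%, 7.51%, 5.25% and 6.63% of all genes. DESeq2 called 1, 1, 3 and 2 of the 66 in the same order, and voom the same numbers, beside the shares of all genes given above for these tools. Among the genes called by both tools were CBX5 in the first 2 comparisons, CBX5 and RAD52 in clone A4, and RAD52 between the clones. For telomerase assembly and TERC maturation (16 genes), the median log2 fold change in the NCBP2 arm was 0.02, the same as for all genes, from -0.10 for the H/ACA protein NHP2 to 0.26 for the assembly ATPase RUVBL1. For the CST complex and telomere replication (16 genes, 15 tested), it was 0.03, from -0.25 for CTC1 to 0.90 (SE 1.10) for the helicase RTEL1. RTEL1 was at 0 to 0.399 CPM, and 4020 of its 8542 exon bases are unshared. TEN1, the untested gene, had 12 counts in all.

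For recombination and PML bodies linked to ALT (20 genes), the median in the NCBP2 arm was 0.07. The lowest was the annealing protein RAD52 (-0.45, SE 0.311) and the highest SMC6, a subunit of the SMC5/6 complex (0.97, SE 0.409, adjusted p 0.823 by edgeR). In clone A1 against vector, the log2 fold change of SMC6 was 1.14 (SE 0.462, adjusted p 0.591 by edgeR). It passed there in edgeR with no low-count filter, where 312 of 37715 genes passed, and under no other alternative. SMC6 measured 115, 59.0 and 58.8 CPM for clone A1, 80.2, 28.8 and 71.1 for clone A4 and 38.5, 14.5 and 52.6 for vector. The NCBP2 arm and vector overlapped only through clone A4 replicate B. All 3 libraries of clone A1 lay above all 3 vector libraries. Over all genes, 14.2% had no overlap between clone A1 and vector.

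Between the clones, RAD52 was at 19.8, 18.6 and 24.9 CPM in clone A1 and 10.8, 9.60 and 9.09 CPM in clone A4, with vector at 19.1, 20.1 and 24.1 CPM. All 3 libraries of clone A4 lay below the other 6; of all genes, 13.6% had no overlap between the clones and 12.1% none between clone A4 and vector. The log2 difference between clone A4 and clone A1 was -1.10 (SE 0.214, adjusted p 0.0897 by edgeR, past 0.05 in 4 of 16 alternatives). RAD52 lies on chromosome 12.

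For H3.3 and telomeric chromatin (15 genes), the median was -0.04 in the NCBP2 arm. CBX5, which encodes the heterochromatin protein HP1 alpha, was at 607, 638 and 678 CPM for clone A1, 584, 717 and 597 for clone A4 and 1027, 889 and 1029 for vector. All 6 NCBP2 libraries lay below all 3 vector libraries. Over all genes, 3.74% had arms that did not overlap. The means were 637 CPM ± 51.8 (SD, n = 6) against 982 CPM ± 80.1 (SD, n = 3), and the log2 fold change was -0.62 (SE 0.119). The adjusted p by edgeR, 0.150, does not pass. It passed with DESeq2 (adjusted p 0.00199), with voom (0.00358) and with GC centring in edgeR (0.0352), and in none of the other 14 alternatives. EHMT1, an H3K9 methyltransferase, was highest of the list, at 67.7 to 91.0 CPM in the NCBP2 arm and 48.9 to 64.7 CPM in vector, with a log2 fold change of 0.57 (SE 0.153, adjusted p 0.451 by edgeR); its arms did not overlap either.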

How the data were processed

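RNA of 9 U2-OS libraries was sequenced after ribosomal RNA removal, per the labels' protocols (Direct-zol extraction, KAPA RNA HyperPrep with ribodepletion), although the molecule field names polyadenylated RNA. The deposited tables hold raw counts per gene. The submitters' processing notes name STAR 2.7.1a and the build GRCh38; the gene annotation and the counting options are not given in the sources used here. Counts of column 3, the strand with most stranded reads, were used. The 4 lines that name no gene held 44.5% to 63.6% of a library's reads and entered neither library sizes nor tests. Of 60609 identifiers, 60295 matched GENCODE release 44, which gave symbols, positions, exon lengths, shared bases and GC content (99.6% of tested genes had a value).

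Groups came from the titles. The test was edgeR 4.0.16 (R 4.3.3), quasi-likelihood and robust, after filterByExpr and TMM scaling, with Benjamini-Hochberg adjustment over 21682 genes and a threshold of 0.05. One fit had 2 groups (6 NCBP2 and 3 vector libraries) and another had 3 groups sharing the spread. The SEs and 95% intervals were not given by edgeR itself. They were derived from its log2 fold changes, its F statistics and a t quantile. CPM used TMM-scaled totals, and log2 CPM a prior count of 2. Alternatives were DESeq2 1.42.0, voom (limma 3.58.1), another scaling, no filter, unstranded counts, counts summed per clone, a replicate block and leaving out each library. On simulated counts with real means, edgeR recovered 100 of 100 genes changed 4-fold in the NCBP2 arm (20991 genes), with 12 unchanged genes called. In clone A1 (20898 genes) it recovered 94 of 100, with 10 unchanged genes called. The simulated spread between libraries was set lower than that of the deposited counts and held no GC shifts. Recovery in the deposited counts may therefore be lower, and NCBP2 itself did not pass there in the NCBP2 arm.

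The members and the 4 gene lists (telomerase assembly, CST and replication, recombination and PML bodies, H3.3 and telomeric chromatin) and the marker lists (osteosarcoma, epithelial, blood, endothelial) were chosen with earlier results of these data known. Endothelial markers summed to 2.87 CPM at most. All members are named; from each list, genes past the threshold are named or, with none, the lowest and highest log2 fold change in the NCBP2 arm. Floors take only counting error into account, since the reads have no molecular identifiers. One gene of the recombination list is not reported here by name.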

Additional observations from a re-analysis of the deposited data

Results flagged for a closer look

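Of the member levels compared within the 6 NCBP2 libraries, ACD was the one with a library far from the others. Its level in clone A4 replicate C was 10.1 CPM, against 3.45 to 5.48 CPM in the other 5, and the gap to the nearest library made up 0.695 of the whole range, above Dixon's 95% critical value for 6 libraries. Chance gives such a gap in about 1 of 20 groups, and several members were compared. The ratio was taken on CPM. On log2 CPM the library stood at 3.34, against 1.81 to 2.47 in the other 5, and the gap is under that critical value. In the same library, the median deviation of the genes of GC group 10, to which ACD belongs, was 0.85 on the log2 scale.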

How the results depend on the processing

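The number of members called, 0 in each of the 4 comparisons, was 0 under every alternative. At an unadjusted p under 0.05, 3 of 32 member values passed with voom, where 2616 to 3051 of 21682 genes passed per comparison. By edgeR, 2 of 32 passed with GC centring (1862 to 2688 of 21586 genes) and 2 of 32 without vector replicate B (1141 to 1721 of 22842 genes). Under the other alternatives no member value passed. The 32 member differences gave 520 values under the alternatives; 472 kept their sign, 48 did not, and the lowest adjusted p was 0.209 (POT1, voom). Another scaling, DESeq2, no low-count filter, unstranded counts and counts summed per clone changed no sign.

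Same-letter correlations of deviations lay between -0.10 and 0.18 over 9 pairs, and those of different letters between -0.27 and 0.22. Of 18 comparisons, 8 were highest with the own letter. Whether the letters pair the libraries is not settled by these values. The replicate block changed no member's sign, with a lowest adjusted p of 0.642 and 0 members called. Over all genes it gave 13 calls in place of 4 in the NCBP2 arm, 38 in place of 14 in clone A1, 53 in place of 25 in clone A4 and 51 in place of 35 between the clones. In the NCBP2 arm, DESeq2 called 102 genes, voom 216, no filter 20, GC centring 46 and counts summed per clone 0 (906 by unadjusted p under 0.05). In the other 3 comparisons, in the order above, DESeq2 called 274, 178 and 246 genes, voom 297, 233 and 149, no filter 312, 163 and 231, and GC centring 160, 100 and 154.

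With voom, log2 fold changes of changed sign were, in the NCBP2 arm, -0.22 for ATRX, 0.11 for DAXX, -0.11 for TERF1, 0.46 for ACD and 0.011 for NHP2. In clone A1 they were -0.17 for ATRX, 0.039 for DAXX, -0.016 for TERF1 and 0.39 for ACD. In clone A4 TINF2 was 0.018, and between the clones ATRX was 0.034 and POT1 0.10. With centring on GC content, added after seeing the data, ATRX was -0.010, DAXX 0.0024, TERF1 -0.054 and ACD 0.014 in the NCBP2 arm, and ACD was 0.076 in clone A1, -0.049 in clone A4 and -0.13 between the clones. The cause was not tested.

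Leaving out 1 library changed 30 of 288 member values in sign, 9 of them without vector replicate B. In the NCBP2 arm the ranges were -0.39 to 0.47 for ACD, -0.22 to 0.33 for ATRX, -0.24 to 0.19 for DAXX, -0.20 to 0.25 for TERF1 and -0.27 to 0.12 for NHP2; without a change of sign, POT1 ran from -0.64 to -0.035 and TINF2 from -0.27 to -0.016 (highest without vector replicate B). In clone A1 they were -0.62 to 0.24 for ACD, -0.040 to 0.52 for ATRX, -0.40 to 0.031 for DAXX, -0.51 to 0.10 for POT1 and -0.065 to 0.39 for TERF1. In clone A4 they were -0.36 to 0.67 for ACD, -0.42 to 0.13 for ATRX, -0.11 to 0.34 for DAXX, -0.35 to 0.10 for TERF1, -0.16 to 0.058 for TERF2IP and -0.15 to 0.10 for TINF2. Between the clones they were -0.070 to 0.65 for ACD, -0.45 to 0.045 for POT1 and -0.24 to 0.0025 for TERF2. Gene calls ranged from 1 to 8, 3 to 14, 7 to 41 and 10 to 56 in the 4 comparisons.

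Depth limits ACD most, with 98 to 474 counts a library; TERT lies under its floor. For TERC no floor is given, since 438 of its 541 bases are shared; why the other 103 had no count was not tested. With 3 libraries a group and 2 NCBP2 clones, differences between clones and differences by NCBP2 cannot be told apart.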
